A study of Arabidopsis thaliana with 8 samples.

Results

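The 39 genes described here encode the core histones H2A (12 genes), H2B (8), H3 (8) and H4 (8) and the linker histone H1 (3) of Arabidopsis thaliana. They were chosen by gene identifier as structural histones, with no histone-modifying enzyme among them, out of 33977 genes in the deposited table of RPKM values, which are read numbers scaled to transcript length and to the mapped reads of the library. RNA came from floral buds of stages 8 to 10, pooled, of transgenic line 4-3, called amiRNACWIN24 here, and of wild type (WT), with 4 biological replicates of each. Line 4-3 carries pSTK::amiRNACWIN24, an artificial microRNA aimed at the cell wall invertases CWINV2 and CWINV4 and driven by the promoter of the ovule identity gene STK. The construct is therefore active in a small part of the bud, while the RNA was taken from whole buds, and 1 line stands for the genotype. In such bulk samples fewer cells of a type and less RNA per cell cannot be told apart.

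Histones package DNA into nucleosomes. An H3-H4 tetramer and a pair of H2A-H2B dimers form the core, and H1 binds the DNA between cores. Plant histone genes form small families whose messages carry poly(A) tails, and the replication-coupled genes are transcribed mainly in S phase, when new chromatin is assembled. Variants replace the canonical proteins at particular places: H2A.Z at the start of genes, H2A.W in pericentromeric heterochromatin, H2A.X at DNA breaks, and H3.3 at transcribed genes in place of the replication-coupled H3.1.

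The targeted genes were checked first. CWINV4 was at 15.0, 11.2, 14.0 and 14.9 RPKM in amiRNACWIN24 replicates 1 to 4, against 24.3, 25.2, 29.8 and 28.3 RPKM in the WT libraries, with no overlap (log2 -0.95). The two-sided permutation test gave an exact p of 0.0286, which is the smallest possible with 70 arrangements. STK, whose promoter drives the construct, stood at 0.599 ± 0.156 RPKM in amiRNACWIN24 and 9.82 ± 1.44 RPKM in WT (SD, n = 4 each; exact permutation p = 0.0286), and CWINV2 was below 0.2 RPKM in every library other than WT replicate 1 (2.75 RPKM; exact permutation p = 0.943). The depth, worked out from the value of a single read in each library, was 22.5 to 26.2 M reads in genes per amiRNACWIN24 library and 25.5 to 26.7 M per WT library, and a histone gene held 163 to 17350 reads in a library. The floral organ markers AG, AP3, PI, SEP3, SEP1 and SPL were present in all 8 libraries, with a summed level of 684 to 761 RPKM in amiRNACWIN24 and 759 to 926 RPKM in WT. The 5 late pollen markers VGD1, VGDH1, AGP6, AGP11 and BCP1 summed to 18.1 to 28.8 RPKM in amiRNACWIN24 and 116 to 293 RPKM in WT, highest in WT replicates 1 and 2. Most of the WT sum was VGD1 (mean 138 of 214 RPKM). VGD1, AGP6 and AGP11 fell, while VGDH1 and BCP1 did not pass (limma adjusted p = 0.12 and 0.33). In both of these, WT replicates 3 and 4 were below 0.3 RPKM and within the amiRNACWIN24 range. The part of the pollen markers in the histone values was not tested. Of the seed storage markers, SESA3 was at 0 in all 8 libraries, and OLEO1 was at 0 in all but amiRNACWIN24 replicate 2 (0.043 RPKM). CRA1 averaged 0.203 RPKM in amiRNACWIN24 and 0.102 RPKM in WT.

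Transcripts of the core histones were lower in amiRNACWIN24 buds in every family. All 39 genes passed the filter of a mean of at least 1 RPKM, 35 of them fell and 2 rose at a limma adjusted p under 0.05, beside 21.0% of the 19082 genes tested that fell and 29.4% that rose. The 12 H2A and the 8 H4 genes all fell, as did 7 of the 8 H2B and 7 of the 8 H3 genes. The genes that rose were the H2B gene AT2G28720, which the authors' deposited table does not call, and the linker histone HIS1-3, and those that did not pass were the H3.3 gene AT4G40040 and the H1 gene AT2G30620. The median log2 fold change over the 39 genes was -0.65, against 0.07 over all genes tested. In 28 of the genes that fell, every amiRNACWIN24 library was below every WT library, and in both that rose every one was above. Over all genes tested 18.4% were lower and 27.4% higher without overlap.

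**Figure D1:**
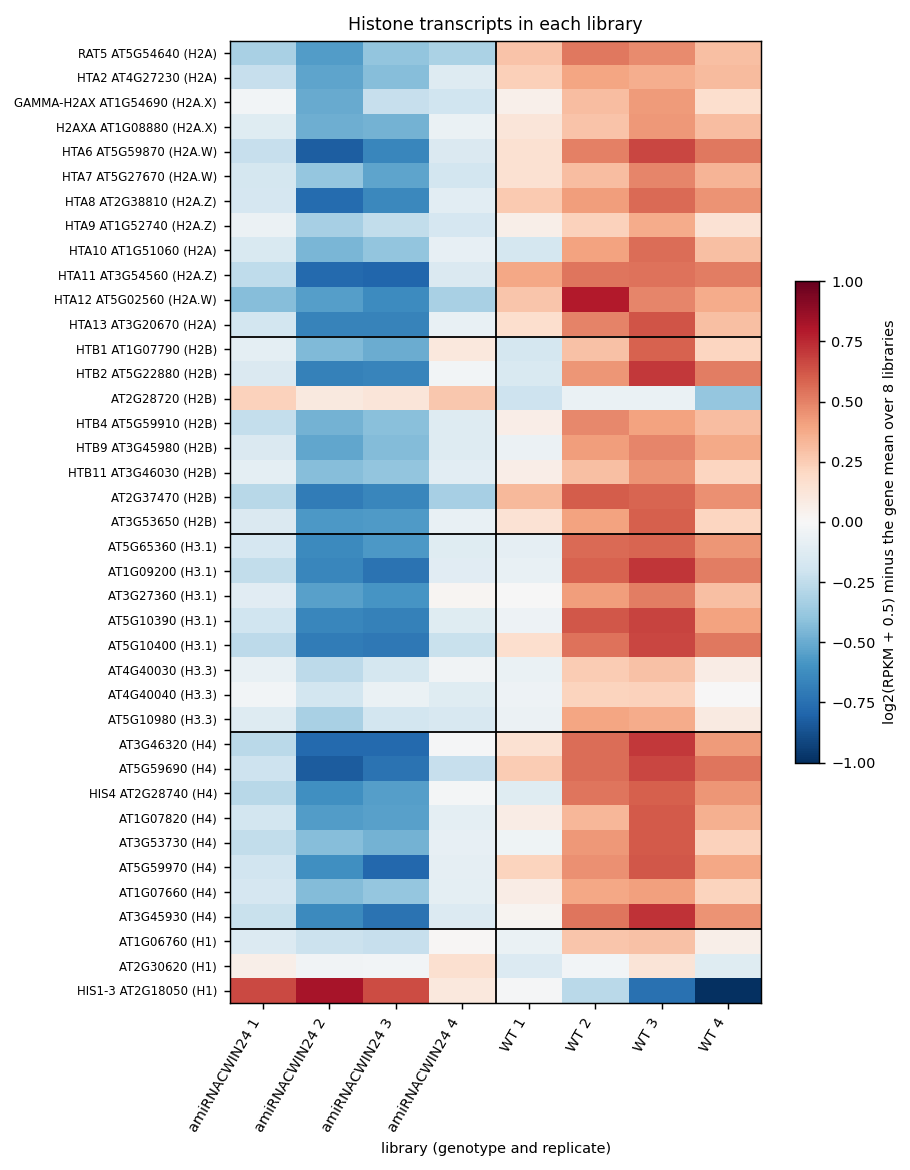
Level of each histone gene (rows, grouped by family) in each library (columns, amiRNACWIN24 then WT), as log2(RPKM + 0.5) minus the mean of the gene over the 8 libraries. The 35 genes that fell are mostly blue at left and red at right, with WT replicate 1 below the mean in HTB1, HTB2, HTA10, AT4G40030 and others and amiRNACWIN24 replicate 4 above it in HTB1, and AT2G28720 and HIS1-3 run the other way; amiRNACWIN24 replicates 2 and 3 are the bluest columns and WT replicate 1 the palest of the WT columns.

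Fold changes across all genes followed exon length in this series, and histone genes are short. The exons of the 39 genes summed to 644 to 1666 nt, with a median of 847 nt, against a median of 1764 nt over all genes tested. Of the 39 genes, 24 were in the shortest of 10 equal groups of genes by exon length, where 64.4% of genes fell and the median log2 fold change was -0.49, and all 24 fell, with a median of -0.75. The next group held 9 histone genes, with a median of -0.64 against -0.29 for all genes there, and 49.6% of its genes fell. A doubling of exon length went with a rise of 0.19 to 0.25 in relative level (log2) in the 4 amiRNACWIN24 libraries and with a fall, a slope of -0.37 to -0.13, in the 4 WT libraries.

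**Figure D2:**
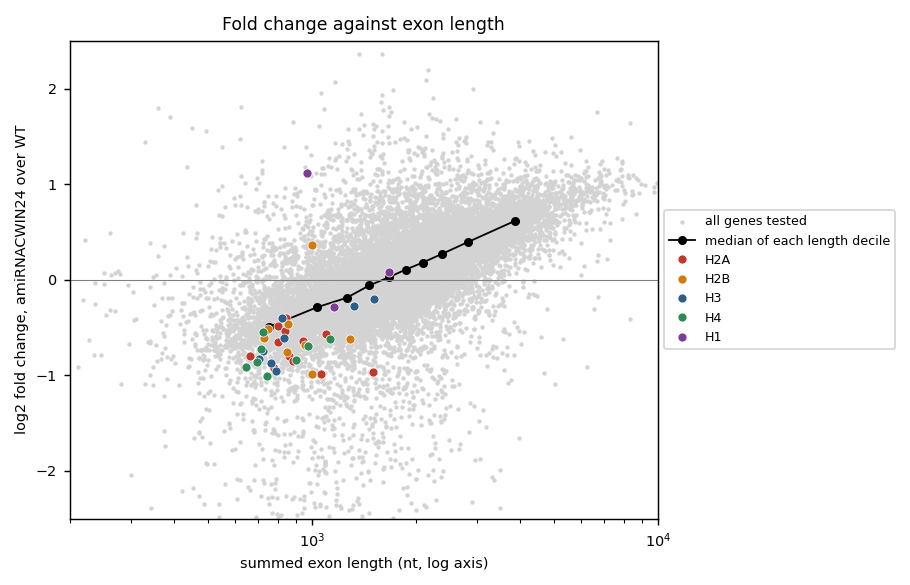
Log2 fold change, amiRNACWIN24 over WT, of every gene tested against its summed exon length (log axis). Grey points are all genes, with those beyond 2.5 on the vertical scale outside the frame; black points join the medians of 10 groups of genes by length, from -0.49 to 0.61, and coloured points are the histone genes, of which most lie at the short end and below the black line.

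With the length trend taken out of each library, 7 histone genes fell, 2 rose and 30 did not pass, beside 14.2% of 18994 genes that fell and 15.1% that rose. The 7 were the H2A gene RAT5 (HTA1), the H2A.Z gene HTA11, the H2A.W gene HTA12, the H2B genes HTB4 and AT2G37470, the H3.1 gene AT5G10400 and the H4 gene AT5G59690. The genes that rose were again AT2G28720 and HIS1-3. In this fit the share of histone genes that fell was near that of all genes, and the share that rose was below it. Of the 39 log2 fold changes 32 stayed below 0, with a median of -0.24 against 0.03 over all genes. With the trend of GC content removed as well, 11 fell and 2 rose, beside 14.7% and 15.1% of all genes. Values from the fit with the length trend alone removed, without the GC step, are called length-corrected below. Whether the trend reflects the samples or the libraries was not tested.

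**Figure D3:**
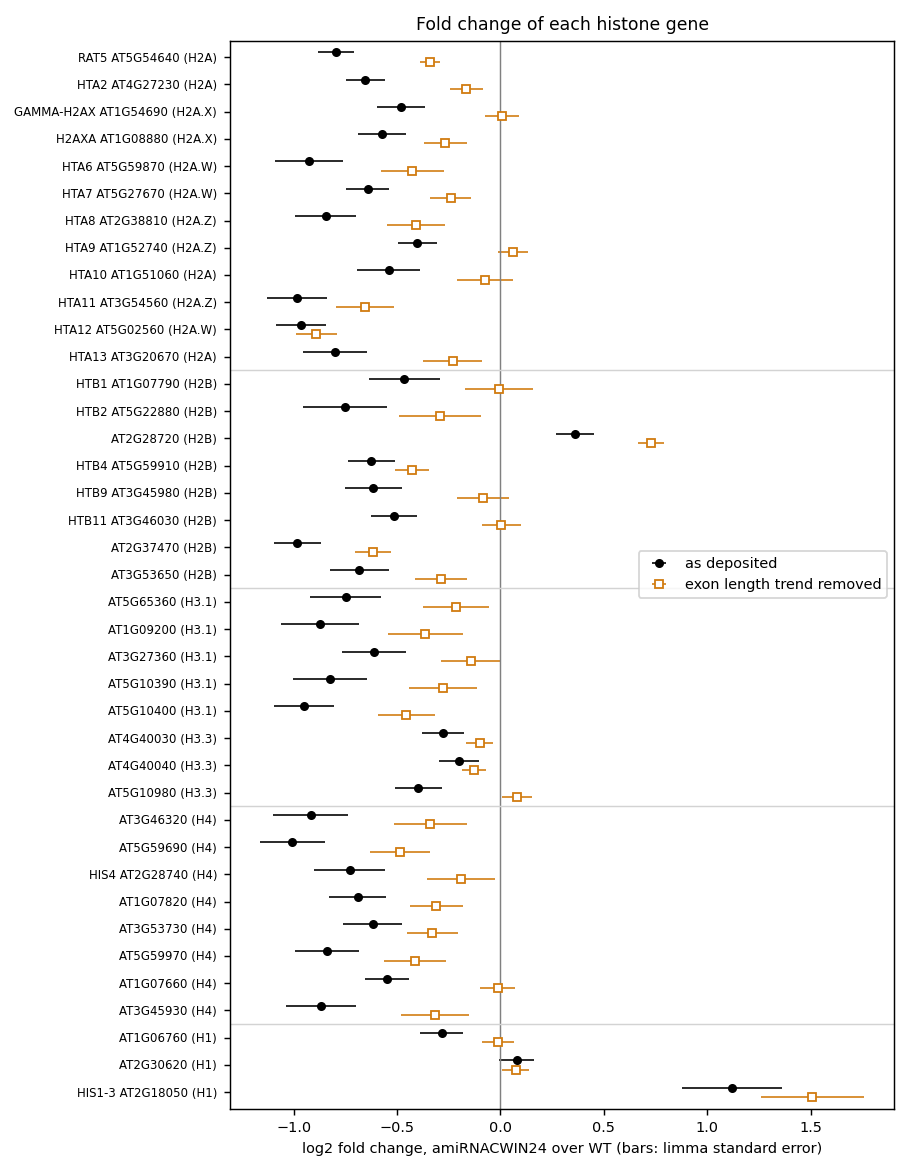
Log2 fold change of each histone gene, amiRNACWIN24 over WT, with the limma standard error (bars), as deposited (filled circles) and with the exon length trend removed (open squares). HTA12 moves little between the fits, at -0.96 and -0.89, HTA9 moves across 0, at -0.40 and 0.06, and HIS1-3 stands at 1.12 and 1.51.

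The stretches around the starts of the genes were searched for 4 motifs known from plant histone and S phase genes, on both strands, from 250 bases before to 50 bases after the annotated start. The octamer CGCGGATC, named for plant histone promoters, was in 10 of 39 histone genes and in 0.184% of the promoters of all genes tested. Over all 38093 annotated genes 56 promoters held it, so that the 39 histone genes had 10 of the 56. It was found in 4 H3, 3 H2A, 2 H4 and 1 H1 gene and in 0 of 8 H2B genes. All 8 H2B genes instead had the hexamer ACGTCA on the gene strand, which 12 of 39 histone genes and 9.81% of all genes tested held. In HTB4 the only hexamer began at base 41 after the start, within the transcript. In HTB2 the hexamer began 195 bases before the start and again at base 3 after it. An E2F site (TTTCCCGC, TTTCGCGC, TTTGCCGC or TTTGGCGC) was in 3 of 39, the H2B gene HTB2 and the H4 genes AT3G46320 and AT3G45930, against 1.85% of all genes tested, and the telo box AAACCCTA in 2 of 39 against 5.99%. No octamer overlapped an E2F site in these promoters. A match is a description of the letters, not of a site in use.

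The 150 bases before the start of 5 genes are shown from the RefSeq TAIR10.1 assembly, 5′ to 3′ on the strand of the gene, with the octamer or hexamer in capitals. They are the H4 gene with the largest fall (chr5:24051324-24051473, plus strand), an H3.1 gene with the octamer at 2 places (chr1:2972335-2972484, minus strand), the H2B gene with the largest fall (chr2:15736577-15736726, plus strand), the H2B gene that rose (chr2:12326658-12326807, plus strand) and HIS1-3, the H1 gene that rose (chr2:7845773-7845922, plus strand).
AT5G59690 (H4): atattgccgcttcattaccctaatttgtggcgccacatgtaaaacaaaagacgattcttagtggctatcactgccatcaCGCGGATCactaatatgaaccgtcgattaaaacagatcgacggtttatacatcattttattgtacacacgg
AT1G09200 (H3.1): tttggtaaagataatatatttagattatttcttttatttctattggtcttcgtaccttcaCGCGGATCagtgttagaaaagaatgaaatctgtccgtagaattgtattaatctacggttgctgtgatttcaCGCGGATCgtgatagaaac
AT2G37470 (H2B): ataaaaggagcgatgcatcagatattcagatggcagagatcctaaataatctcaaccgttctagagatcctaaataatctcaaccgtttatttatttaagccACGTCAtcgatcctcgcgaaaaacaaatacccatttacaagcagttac
AT2G28720 (H2B): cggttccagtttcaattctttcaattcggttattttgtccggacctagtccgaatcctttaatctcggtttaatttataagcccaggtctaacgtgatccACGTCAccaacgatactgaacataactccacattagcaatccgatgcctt
HIS1-3 (H1): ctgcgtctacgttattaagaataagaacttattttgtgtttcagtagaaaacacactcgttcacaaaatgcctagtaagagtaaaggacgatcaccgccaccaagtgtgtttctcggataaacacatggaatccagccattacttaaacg

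The octamer began 71 bases before the start in AT5G59690 and 90 and 19 bases before it in AT1G09200. The hexamer began at nearly the same place in the H2B gene with the largest fall and in the one that rose, 48 and 50 bases before the start. The HIS1-3 stretch held neither motif. The octamer was in 9 of the 35 histone genes that fell, in 0 of the 2 that rose and in 1 of the 2 that did not pass.

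H4, which pairs with H3 and is encoded by 8 genes for a protein of 103 residues, fell in all 8 genes. AT5G59690 had the highest H4 level and the largest fall of the H4 genes, at 189, 122, 131 and 186 RPKM in amiRNACWIN24 replicates 1 to 4 and 260.0, 322, 346 and 317 RPKM in WT replicates 1 to 4. The highest amiRNACWIN24 library was well below the lowest WT library, WT replicate 1. Its log2 fold change was -1.01 ± 0.16 (SE; limma adjusted p = 0.00061), and -0.49 length-corrected (adjusted p = 0.034).

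AT1G07820 stood at 128, 98.7, 99.6 and 136 RPKM in amiRNACWIN24 and at 154, 183, 223 and 187 RPKM in WT, and HIS4 at 95.8, 76.1, 79.5 and 115 RPKM in amiRNACWIN24 and 107, 169, 177 and 158 RPKM in WT. The groups did not overlap in AT1G07820, while in HIS4 amiRNACWIN24 replicate 4 was above WT replicate 1. Their log2 fold changes were -0.69 and -0.73 (limma adjusted p = 0.0023 and 0.0057). The smallest fall among the H4 genes was in AT1G07660, at 54.5, 45.2, 46.7 and 57.3 RPKM in amiRNACWIN24 and 64.7, 80.5, 81.8 and 71.7 RPKM in WT, with log2 -0.55 as deposited and -0.01 length-corrected. All 8 H4 genes had a length-corrected value below 0, and AT5G59690 alone passed.

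Summed over the 8 genes, H4 was at 766, 574, 577 and 827 RPKM in amiRNACWIN24 and at 959.8, 1252, 1387 and 1187 RPKM in WT, so that the mean sum in amiRNACWIN24 was 0.573 times that in WT. The H4 coding sequences were 78.8% to 98.1% identical between pairs over 312 nt, and reads could be split between near copies. At the read length of 125 nt only AT3G46320 with AT3G45930 and AT1G07820 with AT1G07660 shared an identical exon stretch, over at most 6.92% of the windows of that length, and both genes of each pair fell.

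H3.1, the form deposited by CAF-1 behind the replication fork, fell in all 5 genes, with log2 fold changes of -0.95 to -0.61. The largest fall was in AT5G10400, at 107, 78.4, 77.6 and 109.6 RPKM in amiRNACWIN24 and 144, 187, 203 and 184 RPKM in WT. All amiRNACWIN24 libraries were below all WT libraries (log2 -0.95 ± 0.15, SE, limma adjusted p = 0.00056; -0.46 length-corrected, adjusted p = 0.035). AT1G09200, one of the promoters shown above, was at 150.2, 113, 106 and 164 RPKM in amiRNACWIN24 and 169, 268, 292 and 254 RPKM in WT, where replicate 1 lay just above the amiRNACWIN24 range (log2 -0.87, limma adjusted p = 0.0033). AT5G65360 had a log2 fold change of -0.75, and AT5G10390, which lies 577 bp from AT5G10400, of -0.83. In AT3G27360 (log2 -0.61) the groups overlapped, and this gene shares exon sequence with another gene on the same strand, so its level is uncertain.

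H3.3, the replacement form that HIRA deposits outside replication, held the highest levels of the H3 genes and changed least as deposited. AT4G40040 was at 350.2, 314, 340.4 and 329 RPKM in amiRNACWIN24 and 344, 417, 419 and 358 RPKM in WT. WT replicate 1 lay within the amiRNACWIN24 range, and the log2 fold change of -0.20 ± 0.10 (SE) did not pass (limma adjusted p = 0.10). AT4G40030, 42 bp away on the same strand, stood at 283, 249, 264 and 292 RPKM in amiRNACWIN24 and 286, 356, 367 and 314 RPKM in WT. Again only WT replicate 1 overlapped amiRNACWIN24, with log2 -0.28 (limma adjusted p = 0.043). That call was lost in the fits that left out amiRNACWIN24 replicate 1, 2 or 3 or WT replicate 2, 3 or 4.

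AT5G10980, the third H3.3 gene, was at 236, 207, 228 and 232 RPKM in amiRNACWIN24 and 248, 340.0, 334 and 275 RPKM in WT. The groups did not overlap, with log2 -0.40 (limma adjusted p = 0.014). Length-corrected, the 3 H3.3 genes stood at -0.13 (AT4G40040), -0.10 (AT4G40030) and 0.08 (AT5G10980), each short of the threshold.

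The difference between H3 forms showed in the sums. The H3.1 genes summed to 534, 393, 388 and 565 RPKM in amiRNACWIN24 and to 609, 905, 959 and 847 RPKM in WT (means 470 ± 92.5 and 830 ± 155, SD, n = 4 each). The H3.3 genes summed to 869.6, 770.3, 833 and 852 RPKM in amiRNACWIN24 and to 879, 1113, 1120 and 947 RPKM in WT. H3.3 made up 62.0%, 66.2%, 68.2% and 60.1% of the H3 sum in amiRNACWIN24 and 59.1%, 55.1%, 53.9% and 52.8% in WT, and the lowest amiRNACWIN24 library was just above WT replicate 1. The H3.1 genes are shorter, with a median exon length of 764 nt against 1324 nt for H3.3, and the part of length in this share was not tested on the sums. Length-corrected medians were -0.28 for H3.1 and -0.10 for H3.3, and the difference between the forms was not tested.

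**Figure D4:**
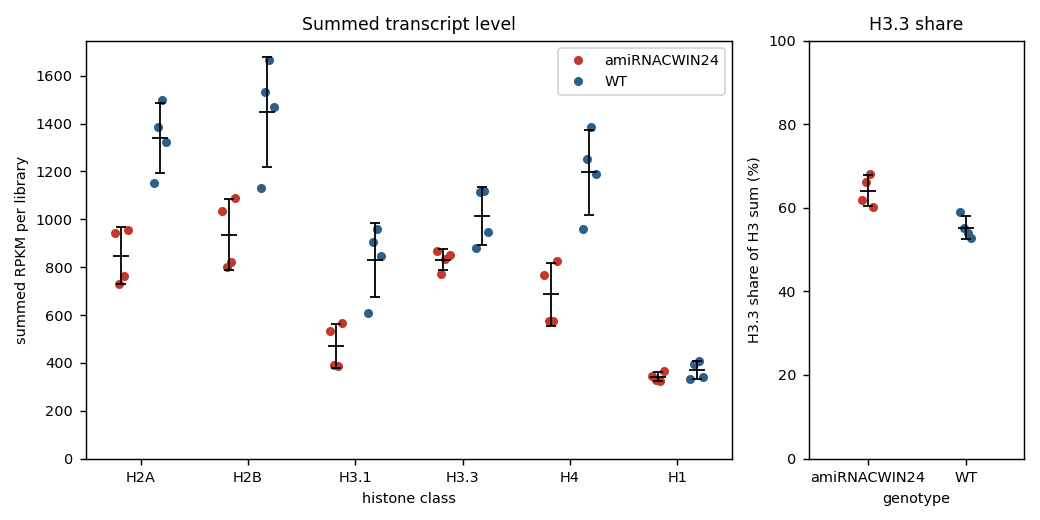
Left, summed RPKM per library of the H2A, H2B, H3.1, H3.3, H4 and H1 genes, with amiRNACWIN24 left of WT (points: libraries; line and bar: mean ± SD, n = 4). H4 and H3.1 show the lowest ratios of amiRNACWIN24 to WT, at 0.573 and 0.566, and the H1 groups overlap; right, the H3.3 share of the H3 sum, above 60% in all amiRNACWIN24 libraries and below it in all WT libraries.

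Among the H2A genes the variants of all kinds fell, and the sum of the 12 genes was 943, 728, 764 and 957 RPKM in amiRNACWIN24 and 1152, 1388, 1499 and 1322 RPKM in WT. H2A.Z, placed at the first nucleosomes of genes by the SWR1 complex, is encoded by HTA8, HTA9 and HTA11. HTA9 had the highest level of the H2A genes, at 197, 163, 172 and 182 RPKM in amiRNACWIN24 and 213, 240.2, 265 and 226 RPKM in WT. The groups did not overlap, yet as deposited this was the smallest change of the H2A family (log2 -0.40, limma adjusted p = 0.0054), and 0.06 length-corrected. HTA9 also overlaps another annotated gene.

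HTA11, less abundant, was at 46.8, 32.5, 32.1 and 50.6 RPKM in amiRNACWIN24 and 73.3, 81.3, 81.8 and 80.3 RPKM in WT, with a wide gap between the groups. The log2 fold change was -0.99 ± 0.15 (SE, limma adjusted p = 0.00047), and -0.66 length-corrected (adjusted p = 0.0085). HTA8 was at 23.7, 15.4, 16.9 and 24.8 RPKM in amiRNACWIN24 and 32.1, 35.7, 39.8 and 36.6 RPKM in WT, also without overlap (log2 -0.85; -0.41 length-corrected, adjusted p = 0.058). H2A.Z made up 28.3 ± 0.955% of the H2A sum in amiRNACWIN24 and 26.3 ± 0.926% in WT (SD, n = 4 each), and the groups overlapped.

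H2A.W, the plant variant of heterochromatin, is encoded by HTA6, HTA7 and HTA12, and its summed RPKM in amiRNACWIN24 was 0.564 times that in WT. HTA6 was at 129, 85.2, 96.0 and 137 RPKM in amiRNACWIN24 and 169, 215, 240.4 and 218 RPKM in WT, with no overlap (log2 -0.93, limma adjusted p = 0.0011). Length-corrected, HTA6 stood at -0.43 and did not pass (limma adjusted p = 0.066). HTA7 had a log2 fold change of -0.64 as deposited (limma adjusted p = 0.00072). Length-corrected, HTA7 stood at -0.24 and did not pass (adjusted p = 0.10). HTA12, the least abundant of the 3, had 6.88, 6.26, 5.90 and 7.39 RPKM in amiRNACWIN24 and 11.5, 16.6, 13.4 and 12.3 RPKM in WT. Its log2 fold change of -0.96 ± 0.12 (SE, limma adjusted p = 0.00023) was nearly the same length-corrected, at -0.89 (adjusted p = 0.00038), since its exons sum to 1506 nt, longer than those of the other H2A genes. HTA12 overlaps another annotated gene, and without strand in the sources its reads cannot be fully told from that neighbour's. The neighbour is AT5G02570, in the list of other histone genes below, and the overlap covers 522 nt. AT5G02570 was at 0 RPKM in all 8 libraries, while the authors' deposited table gives it log2 -2.22 with a false discovery rate of 6e-13. The level of HTA12 is therefore uncertain. H2A.W made up 20.9% to 22.8% of the H2A sum in amiRNACWIN24 and 23.7% to 25.5% in WT, with no overlap.

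The canonical H2A genes RAT5 (HTA1), HTA2, HTA10 and HTA13 fell with log2 fold changes of -0.80 to -0.54. RAT5, first known from mutants that resist Agrobacterium transformation, was at 42.3, 35.9, 40.2 and 42.6 RPKM in amiRNACWIN24 and 64.8, 76.6, 73.9 and 65.5 RPKM in WT. The spread within each group was small beside the gap, and the gene passed length-corrected as well (log2 -0.79 and -0.34, limma adjusted p = 0.00013 and 0.0014). HTA10 was at 118, 95.9, 100.1 and 124 RPKM in amiRNACWIN24 and 116, 174, 193 and 162 RPKM in WT, where WT replicate 1 lay below amiRNACWIN24 replicates 1 and 4 (log2 -0.54, limma adjusted p = 0.013). The H2A.X genes GAMMA-H2AX (HTA3) and H2AXA (HTA5), whose proteins are phosphorylated at DNA breaks, had log2 fold changes of -0.48 and -0.57, smaller falls than the family median of -0.72. H2A.X therefore made up slightly more of the H2A sum in amiRNACWIN24, 13.1% to 13.8%, than in WT, 12.1% to 12.6%.

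The H2B genes were the most mixed of the core families, with 7 that fell and 1 that rose. Their sum was 1034, 799, 820.0 and 1091 RPKM in amiRNACWIN24 and 1129, 1531, 1667 and 1472 RPKM in WT. HTB2 had the highest level, at 285, 198, 199 and 309.6 RPKM in amiRNACWIN24 and 284, 428, 517 and 449 RPKM in WT. WT replicate 1 lay just below amiRNACWIN24 replicate 1, while the other 3 WT libraries were above all of amiRNACWIN24 (log2 -0.75 ± 0.20, SE, limma adjusted p = 0.011; -0.29 length-corrected, not passed). HTB4 was at 205, 175, 182 and 222 RPKM in amiRNACWIN24 and 253, 338, 321 and 299.6 RPKM in WT, with no overlap (log2 -0.63, limma adjusted p = 0.0013; -0.43 length-corrected, adjusted p = 0.0056). HTB9 was at 212, 163, 174 and 215 RPKM in amiRNACWIN24 and 225, 314, 329.5 and 306 RPKM in WT (log2 -0.62, and -0.08 length-corrected, not passed), and WT replicate 1 stood only just above the amiRNACWIN24 range. HTB9 overlaps 2 other annotated genes, over 22 and 249 nt, so its level is uncertain.

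AT2G37470 and AT2G28720 lie on the same chromosome and moved in opposite directions. AT2G37470 was at 48.8, 36.4, 37.5 and 46.9 RPKM in amiRNACWIN24 and 74.2, 90.4, 89.2 and 81.3 RPKM in WT, the largest fall of the family (log2 -0.98 ± 0.11, SE, limma adjusted p = 0.00016; -0.62 length-corrected). AT2G28720 was at 29.6, 26.9, 27.3 and 30.3 RPKM in amiRNACWIN24 and 21.7, 24.0, 24.0 and 19.1 RPKM in WT. The groups were close but did not overlap, and the replicates of amiRNACWIN24 varied by less than 4 RPKM. The log2 fold change was 0.36 ± 0.09 (SE, limma adjusted p = 0.0073), and 0.73 ± 0.06 length-corrected (adjusted p = 0.0001). The H4 gene HIS4, which fell, lies 1536 bp from AT2G28720, tail to tail with it.

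The other H2B genes were HTB1, HTB11 and AT3G53650, with log2 fold changes of -0.47, -0.51 and -0.68. The call on HTB1 (limma adjusted p = 0.044) was lost in 6 of the 8 fits that left out a library, namely amiRNACWIN24 replicate 1, 2 or 3 or WT replicate 2, 3 or 4. AT3G53650 was the least abundant H2B gene, at 10.1 ± 1.97 RPKM in amiRNACWIN24 and 16.5 ± 2.42 RPKM in WT (SD, n = 4 each).

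The linker histone genes had no common direction. AT1G06760 (H1.1) was at 205, 194, 191 and 226 RPKM in amiRNACWIN24 and 215, 273, 276 and 234 RPKM in WT. WT replicate 1 fell within the amiRNACWIN24 range (log2 -0.28, limma adjusted p = 0.041; -0.01 length-corrected, not passed), and the call was lost without amiRNACWIN24 replicate 1, 2 or 3 or WT replicate 2, 3 or 4. AT2G30620 (H1.2) was at 117, 109.8, 110.0 and 126 RPKM in amiRNACWIN24 and 102, 110.1, 123 and 103 RPKM in WT, with overlapping groups and no call (log2 0.08 ± 0.09, SE, limma adjusted p = 0.47). Both genes overlap another annotated gene. The 3 H1 genes together summed to 342 ± 19.5 RPKM in amiRNACWIN24 and 369 ± 37.4 RPKM in WT (SD, n = 4 each), and the groups overlapped.

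HIS1-3 encodes H1.3, a short linker histone of 167 residues known to be induced by drought and low light. It was at 23.3, 26.2, 23.2 and 15.8 RPKM in amiRNACWIN24 and 14.5, 12.0, 8.53 and 6.01 RPKM in WT. All amiRNACWIN24 libraries were above all WT libraries, although amiRNACWIN24 replicate 4 and WT replicate 1 came close. The log2 fold change was 1.12 ± 0.24 (SE, limma adjusted p = 0.0034), and 1.51 length-corrected (adjusted p = 0.0029). Its share of the H1 sum was 4.29% to 7.95% in amiRNACWIN24 and 1.75% to 4.36% in WT. Replicates ran in an order unlike that of the core histones, with amiRNACWIN24 replicates 1 to 3 above replicate 4 and WT replicate 1 the highest of WT.

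Within each genotype the other histone genes ranked the libraries alike, a pattern noticed after the values were seen. In 37 of 39 genes amiRNACWIN24 replicates 1 and 4 were both above replicates 2 and 3, as in 33.4% of all genes tested. In 37 of 39 WT replicate 1 was the lowest WT library, as in 45.5% of all genes. The sum over the 39 genes was 4492, 3593, 3707 and 4659 RPKM in amiRNACWIN24 replicates 1 to 4 and 5060, 6584, 7039 and 6119 RPKM in WT replicates 1 to 4, so that WT replicate 1 stood between the groups. In 36 of 39 genes every amiRNACWIN24 library was below WT replicates 2 to 4, a count chosen after the values were seen. The share of all genes that meet it was not worked out. With WT replicate 1 kept, 18.4% of all genes tested were lower without overlap. The genes share libraries and do not count as separate observations of the order of the libraries. The 23 S phase genes, of which 22 were tested, ranked amiRNACWIN24 the same way in 21 and the 19 mitosis genes in 19, and WT replicate 1 was the lowest WT library in 18 of each.

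Along the chromosomes, 17 of the 39 genes had another of the set within 50 kb and 4 within 1 kb, the close pairs being AT4G40030 with AT4G40040 and AT5G10390 with AT5G10400. On chromosome 5 the H4 gene AT5G59690, the H2A.W gene HTA6, the H2B gene HTB4 and the H4 gene AT5G59970 followed each other between positions 24051474 and 24146729. All 4 fell as deposited, with log2 fold changes of -1.01 to -0.63, beside 21.0% of all genes tested. All but HTB4 were in the shortest group by exon length, where 64.4% of genes fell. AT5G59690 and HTB4 also passed length-corrected, while HTA6 and AT5G59970 did not (limma adjusted p = 0.066 and 0.067). The genes of H4, H3.1 and H2B had 1 exon each except AT1G07660, which had 2, whereas the H3.3 genes had 3 to 5 and those of H2A and H1 had 2, with 3 in HTA11.

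Other histone genes, 10 genes of rare or germline forms, were mostly too low to test. The 4 tested all fell, beside 21.0% of all genes tested, though only 2 of them without amiRNACWIN24 replicate 2 or 3. They were MGH3, the H3 of sperm nuclei, the H3 gene HTR11, the H2B gene AT3G09480 and HTR12, the centromeric H3. Length-corrected 2 of them fell, beside 14.2% of all genes. HTR11 (-0.23, limma adjusted p = 0.48) and AT3G09480 (-0.11, adjusted p = 0.68) then did not pass. MGH3 was at 1.04, 0.597, 0.786 and 0.578 RPKM in amiRNACWIN24 and 8.53, 9.46, 5.59 and 5.15 RPKM in WT, with no overlap (log2 -2.59, limma adjusted p = 2.3e-05; -2.06 length-corrected, adjusted p = 1e-04), with WT replicates 1 and 2 the highest as in the late pollen markers. HTR12 was at 6.32, 4.53, 5.03 and 7.17 RPKM in amiRNACWIN24 and 6.45, 8.42, 9.42 and 8.97 RPKM in WT. Its groups overlapped, with the replicate order of the core histones, and it fell as deposited and length-corrected (log2 -0.50 and -0.55, limma adjusted p = 0.021 and 0.014).

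Among 21 genes for factors that carry, exchange and slide histones there were 6 that rose, 2 that fell and 13 without a call, beside the 29.4% of all genes tested that rose and 21.0% that fell, with a median log2 fold change of 0.20 and a median exon length of 1915 nt. Length-corrected, 3 rose and 18 had no call, beside 15.1% of all genes that rose, and the median was 0.06. The rises in this list were thus about as frequent as over all genes. PIE1, the catalytic subunit of the SWR1 complex that deposits H2A.Z, was at 10.6, 9.87, 11.6 and 11.5 RPKM in amiRNACWIN24 and 6.22, 3.12, 4.61 and 4.93 RPKM in WT, with no overlap. Its log2 fold change of 1.16 (limma adjusted p = 0.00038) was 0.24 length-corrected (adjusted p = 0.017), since its exons sum to 6964 nt, and INO80, a remodeller of 5305 nt, stood at 0.96 and 0.21 (adjusted p = 0.00047 and 0.036). HIRA, the H3.3 chaperone, and SPT16, a subunit of the FACT complex, rose by 0.68 and 0.57 on the log2 scale but did not pass length-corrected, at 0.09 and -0.04. FAS1, the large subunit of the H3.1 chaperone CAF-1, did not pass (log2 0.33, limma adjusted p = 0.083).

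The 22 S phase genes tested included 7 that rose, 1 that fell and 14 without a call, with a median log2 fold change of 0.25 and a median exon length of 2312 nt. Over all genes tested 29.4% rose, a share near that of the list, and 21.0% fell. The 7 became 4 on leaving out WT replicate 1 or 2 or amiRNACWIN24 replicate 1 or 4, and the 1 became 4 on leaving out WT replicate 1. Those with the smallest p were ORC1B of the origin recognition complex, the helicase subunits MCM2 and MCM6 and the polymerase subunit ICU2, which rose by 0.66, 0.62, 0.54 and 0.67 on the log2 scale. Length-corrected, 0 of 22 passed in limma, with 1 higher and 4 lower at an unadjusted p under 0.05, the median was -0.04 and ORC1B, MCM2, MCM6 and ICU2 stood at 0.30, 0.19, 0.17 and -0.13. The short S phase gene PCNA2, the sliding clamp, had fallen by 0.39 as deposited, with 1183 nt of exon, and stood at -0.13 length-corrected.

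In the mitosis list of 19 genes 3 fell and 16 had no call, with a median of -0.24 both as deposited and length-corrected. Over all genes tested 21.0% fell and 29.4% rose. Length-corrected 2 of the 19 fell, beside 14.2% of all genes. The count of 3 as deposited moved with single libraries, to 8 when WT replicate 1 was left out, 6 when amiRNACWIN24 replicate 4 was, and 0 for each of the other 6 libraries. It was 9 with median-of-ratios scaling and 10 with quantile normalization. The 3 were the kinase genes CDKB2;1 (log2 -0.39), CDKB1;2 (-0.36) and AUR2 (-0.39), and AUR1 did not pass (-0.35). Of these AUR2 passed length-corrected (-0.64, limma adjusted p = 0.0089). The summed level of the mitosis list was 226 to 348 RPKM in amiRNACWIN24 and 257 to 370 RPKM in WT, and that of the S phase list 329 to 454 RPKM in amiRNACWIN24 and 299 to 420 RPKM in WT. In both lists the groups overlapped. Among the 5 E2F and RBR1 regulators, RBR1 rose (log2 0.64, limma adjusted p = 0.0012; 0.09 length-corrected, not passed) and the E2F genes ATE2F2, E2F1 and E2F3 had log2 fold changes of 0.24, 0.18 and 0.10, none of which passed. DPA, a dimerization partner of E2F, did not pass either (-0.08).

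**Figure D5:**
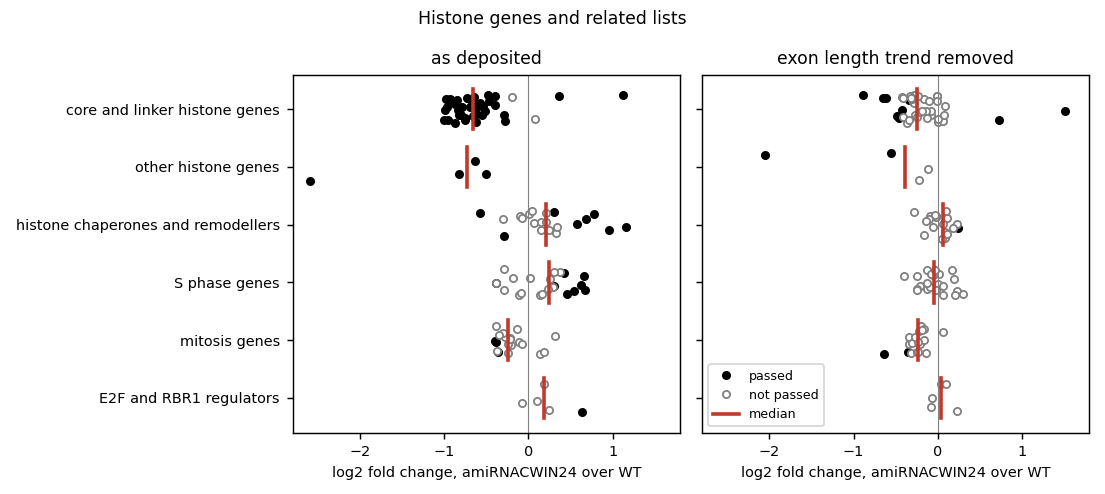
Log2 fold change, amiRNACWIN24 over WT, of each gene tested in the histone set and in 5 related lists, as deposited (left) and with the exon length trend removed (right). Filled points passed at a limma adjusted p under 0.05, open points did not, and the bar is the list median. The histone median is -0.65 at left and -0.24 at right. That of the other histone genes is -0.73 and -0.39, and that of the mitosis genes -0.24 in both. The medians are 0.25 and -0.04 for S phase genes, 0.20 and 0.06 for chaperones and remodellers, and 0.18 and 0.04 for E2F and RBR1 regulators.

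Among the 39 genes, the authors' deposited table gives 36 a negative log2 fold change with a false discovery rate under 0.05, and gives 1 a positive one. Its calls differ from those of limma in 2 genes. The authors' deposited table has AT4G40040 lower, at log2 -0.29 with a false discovery rate of 0.017. It does not call AT2G28720, for which the authors' deposited table gives log2 0.24 with a false discovery rate of 0.17.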

How the data were processed

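Whole-bud RNA was sequenced from both ends at 125 bp to a stated mean of 30 M reads, per the labels' protocols. TAIR10 is the build in the submitters' processing notes; neither labels nor headers name the aligner, counter, strand setting or the authors' test, which are not given in the sources. The authors deposited RPKM values per library and a comparison with a log2 fold change, p-values and adjusted p-values, which is quoted only where named. The labels call the samples biological replicates and name no batch.

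Genes averaging 1 RPKM or more (19082) were compared as log2(RPKM + 0.5), a scale that understates changes of low genes, in limma 3.58.1 (R 4.3.3, eBayes with a trend, two-sided). Genotype was the single factor. P-values were adjusted by the Benjamini-Hochberg method over all tested genes, with a threshold of 0.05. The length correction subtracted from each library a natural spline (4 df) of its deviations from gene means on log2 exon length. For the targeted genes the 70 arrangements of libraries gave an exact permutation p. Low RPKM values were whole multiples of 1 read within 0.05 reads for over 99% of them, which gave the depth. Exon lengths, promoters and coding sequences came from RefSeq TAIR10.1, where all 39 genes had the coordinates of the files. The procedure was tested on simulated data. Alternatives were other pseudocounts, filters, scalings and fits, each library left out, a replicate block and GC content. Python 3.11.15, numpy 2.4.6, scipy 1.17.1, pandas 2.3.3 and matplotlib 3.10.9 served for the rest.

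The genes, the related lists, the length correction and the naming rule were chosen with earlier results of these data known. In each family the rule names the 3 genes with the highest level, the largest rise and fall, any called against its family, all H2A.Z, H3.3 and H1 genes, and up to 4 genes with the smallest p in each list. Other genes named were added after their values were seen.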

Additional observations from a re-analysis of the deposited data

How the results depend on the processing

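Among the 37 calls in histone genes, 32 held in all 8 fits that left out a library and in the 10 other fits that kept the length trend. HTA9 and AT5G10980 lost theirs under quantile normalization, and HTB1, AT4G40030 and AT1G06760 in several fits. Without each library in turn 32 to 36 histone genes fell and 2 rose. With the exon length trend removed 7 fell (11 with GC content as well), and their median was -0.24 (-0.29). Over all genes 2877 then rose (2875 with GC), and of the related lists 2 other histone genes fell, 3 chaperone genes rose and 0 fell, 0 S phase genes rose or fell and 0 E2F and RBR1 regulators rose, each the same with GC in limma. The cause was not tested.

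Leaving out each library in turn gave 2 to 4 falls among other histone genes, 4 to 10 rises and 0 to 4 falls among S phase genes, 0 to 1 rise and 0 to 8 falls among mitosis genes, and 1 to 2 rises among the E2F and RBR1 regulators. Falls among S phase genes numbered 0 with eBayes without a trend, without a filter or with the replicate block, 2 with voom on recovered reads, 3 with quantile normalization, and 4 with median-of-ratios scaling. Falls among mitosis genes numbered 1 with eBayes without a trend or without a filter, 6 with voom, 9 with median-of-ratios scaling and 10 with quantile normalization. Voom gave 2 rises among the E2F and RBR1 regulators. Without both WT replicates 1 and 2, 3 S phase genes rose and 4 fell, and 6 mitosis genes fell.

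The sign of single genes changed in these fits. With the length trend removed the log2 values were 0.0069 for GAMMA-H2AX, 0.061 for HTA9, 0.0048 for HTB11, 0.080 for AT5G10980, -0.036 for SPT16, -0.130 for ICU2 and 0.016 for AP3. With GC content as well they were 0.011 for HTA9, 0.043 for AT5G10980, -0.049 for SPT16, -0.130 for ICU2, 0.011 for AP3 and 0.027 for AG. Under quantile normalization AT4G40040 stood at 0.120, AT1G06760 at 0.020 and AP3 at 0.014, and VGDH1 at 0.093 without both WT replicates 1 and 2.

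The deviations of same-numbered libraries correlated at -0.27, 0.14, -0.32 and 0.53 across genes, and those of differently numbered libraries at -0.40 to 0.37. Such correlations cannot decide whether the replicate numbers pair the libraries. With the replicate block 32 histone genes fell and 2 rose. The summed level of the mildest family, H1, kept a log2 ratio of -0.17 to -0.06 in all fits of the sums. Histone genes held at least 163 reads in every library.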
